A study of Mus musculus with 19 samples.

Results

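The genes described here are 9 members of the interleukin-1 (IL-1) family and its activating machinery: *Il1a*, *Il1b*, *Il1rn*, *Il1r1*, *Il1r2*, *Il18*, *Il33*, *Casp1* and *Nlrp3*. They were chosen by symbol, and all 9 were found among the 24547 genes with a unique symbol in both tissue tables. Bulk RNA sequencing was done on 10 cornea libraries and 9 conjunctiva libraries of C57BL/6 mice (C57BL/6 J in the methods of the study), which either ate ad libitum (AL) or were under calorie restriction (CR), with 5 AL and 5 CR libraries in the cornea and 4 AL and 5 CR libraries in the conjunctiva. No genetic change is named for any group. All titles carry the tags 6M and 50W, which the labels do not spell out. The study calls its mice adult or middle-aged and describes a restriction of 4 months. By the methods of the study the mice were female, the cornea sample was epithelium collected by scraping, and the conjunctiva was excised whole. The methods describe more than one feeding cohort, a ration cut in steps, feeding of CR mice once a day before dark and, in one cohort, a CR chow richer in vitamins and micronutrients, so the smaller ration cannot be told apart from feeding time and, in that cohort, chow. Libraries are named by tissue, diet and title number. No label says that they came from separate mice, so p-values measure the spread between these samples.

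IL-1 alpha and IL-1 beta are released by stressed or infected cells and act through the receptor encoded by *Il1r1*. The receptor antagonist (*Il1rn*) and the decoy receptor (*Il1r2*) oppose them. IL-1 beta and IL-18 are made as inactive precursors that are cut by caspase-1, which is activated in inflammasomes built on sensors such as NLRP3. IL-33 is stored in the nucleus of epithelial and other barrier cells and works as an alarm signal. At the ocular surface this family is known for its part in the response to injury and desiccation.

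Cornea libraries held 10353873 to 14680980 counted reads and conjunctiva libraries 10726357 to 14433080. Values are normalized counts (reads over a scaling factor per library) unless another scale is named. A count of 0 allows up to 3 reads, or 2.27 to 3.37 normalized counts. Such limits cover counting error only. The labelled tissues carried their defining markers: the corneal keratin *Krt12* stood at 179846 to 340965 in cornea libraries against 436 to 5139 in conjunctiva libraries, and the goblet cell mucin *Muc5ac* at 0 to 43.3 against 2328 to 6593. The summed lacrimal gland markers were lower under CR in both tissues. Their sum ran from 25.6 to 31753 in cornea AL libraries, with AL 1 the highest, against 1.52 to 16.4 under CR, and all 4 tested markers were lower under CR with 1 called. In the conjunctiva it ran from 59.5 to 114 against 1.90 to 42.1, and 1 marker was tested, with 0 called. There 7 of the 8 markers found averaged under 10, and *Lpo* went the other way (mean 6.36 under AL, 7.75 under CR). *Prol1* of this list was at 0 throughout. The part of this tissue in the differences of the members was not tested. In cornea CR 7 *Krt12* was lowest (179846) and *Krt19*, a keratin of the conjunctival list, highest (4490). The share of genes with 0 reads was highest in cornea CR 7 (47.6%) and conjunctiva CR 5 (40.1%) within their tissues.

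No member passed the test between the diets in either tissue. The test was limma on log2(normalized count + 1), with Benjamini-Hochberg adjustment over every gene that averaged 10 or more normalized counts, and a call needed an adjusted p under 0.05 and a fold above 1.5. In the cornea 150 of 12277 genes were called (1.22%), and 0 of the 8 tested members. In the conjunctiva 50 of 13928 genes were called (0.359%), and again 0 of 8. The voom method of limma on the recovered reads also called 0 in both. At an unadjusted p under 0.05 limma on the log2 values gave 2 members in the cornea (*Il1r1* and *Il18*) against 18.1% of all genes, and 1 in the conjunctiva (*Il1r1*) against 9.40%. The tested members had a median log2 change of −0.13 (cornea) and −0.05 (conjunctiva), beside −0.03 and −0.02 over all tested genes. In normalized counts the CR libraries of each member overlapped the AL libraries in both tissues. Of all tested genes, 3.97% in the cornea and 3.86% in the conjunctiva had diets that did not overlap. *Nlrp3* stayed under the filter on low values in both tissues. In bulk samples, fewer cells of a type and less RNA per cell cannot be told apart.

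**Figure D1:**
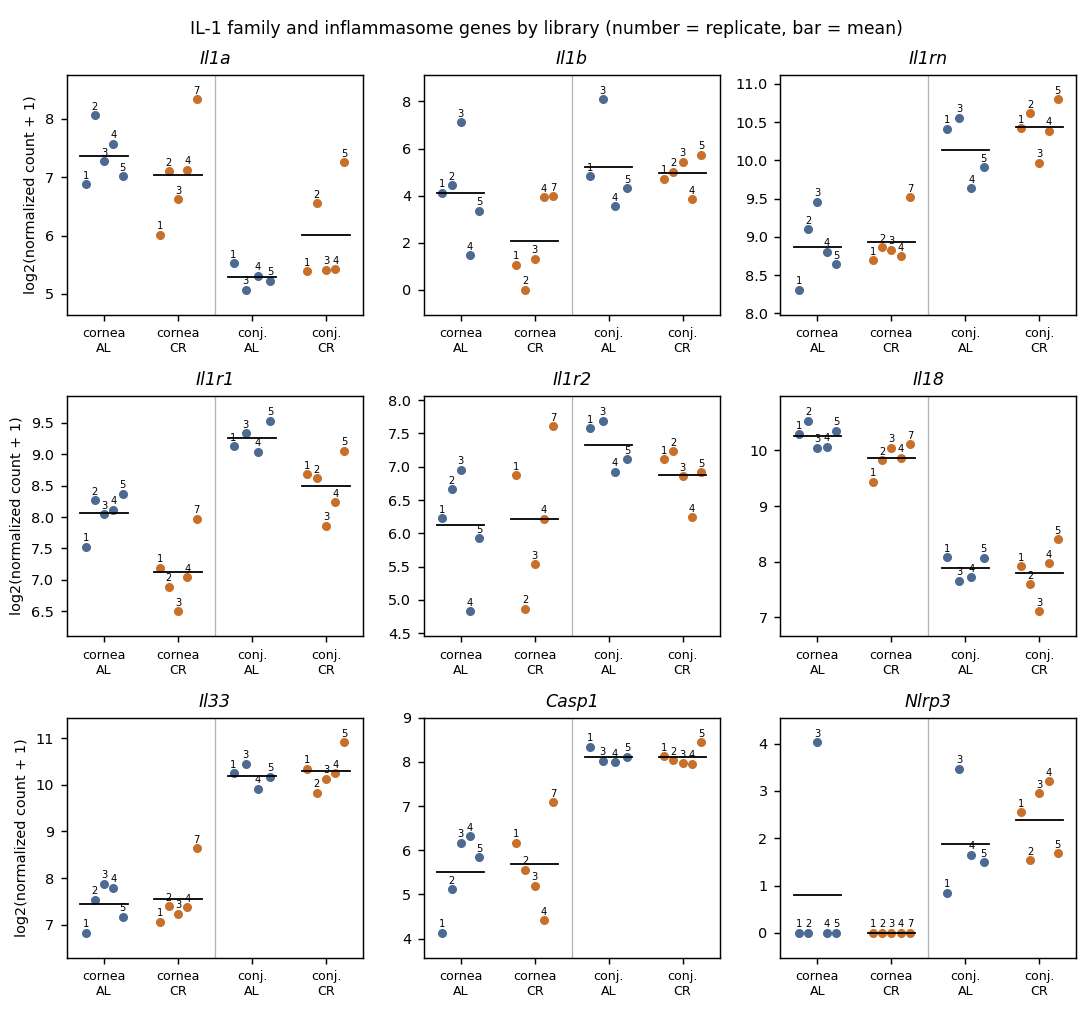
The 9 genes in each library, as log2(normalized count + 1), with AL in blue and CR in orange, the title number beside each point and the mean as a bar. *Il1r1* sits lower under CR in both tissues, with 1 CR library in each inside the AL range.

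The ligand genes came first. *Il1a* (gene ID 16175, minus strand, chr2:129299609-129310186 in GRCm38.p6) and *Il1b* (gene ID 16176, minus strand, chr2:129364569-129371164) lie next to each other. Their 250 bases before the start, taken from RefSeq on GRCm38.p6 in the direction of the gene, are shown because these neighbouring genes have a like element at a like place but were read at different levels in the same libraries. Capitals mark TATAAA (the TATA box) and, in *Il1a*, TGACTCA (the AP-1 motif); motifs were searched on both strands and these matches do not overlap.
Il1a chr2:129309973-129310222: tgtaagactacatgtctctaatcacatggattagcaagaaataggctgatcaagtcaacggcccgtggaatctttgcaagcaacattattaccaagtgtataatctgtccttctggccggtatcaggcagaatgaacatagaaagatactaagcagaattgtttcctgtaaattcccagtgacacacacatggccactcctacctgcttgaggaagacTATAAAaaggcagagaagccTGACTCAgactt
Il1b chr2:129371140-129371389: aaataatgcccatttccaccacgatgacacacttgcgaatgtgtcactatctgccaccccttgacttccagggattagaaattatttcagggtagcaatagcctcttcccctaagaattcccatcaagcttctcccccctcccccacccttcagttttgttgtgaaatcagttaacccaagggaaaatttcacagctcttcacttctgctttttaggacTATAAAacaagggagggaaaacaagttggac
TATAAA began 32 bases before the start of *Il1a* and 31 before that of *Il1b*. Of 32851 promoter windows, 1.75% held TATAAA on the gene strand beginning 35 to 25 bases before the start (a range set after these matches were seen), 12.4% held it anywhere on either strand, and 4.46% held TGACTCA. A match is a description of the letters and not a site in use. The starts used lie inside the gene spans given above, so both windows overlap those spans.

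In the cornea *Il1a* measured 117, 267, 154, 189 and 129 normalized counts in AL 1 to AL 5. Under CR it measured 63.5 in CR 1, 137 in CR 2, 97.7 in CR 3, 139 in CR 4 and 322 in CR 7. CR 7 was above all AL libraries and CR 1 and CR 3 below them. The log2 change was −0.32 ± 0.36 (SE; limma, adjusted p = 0.675), and over the alternatives it ran from −0.82 with a covariate for the zero-read share (adjusted p = 0.402) to −0.06 without CR 1 (adjusted p = 0.935). It was −0.64 without CR 7 (adjusted p = 0.242). In the conjunctiva *Il1a* measured 45.0 in AL 1, 32.5 in AL 3, 38.7 in AL 4 and 36.3 in AL 5. The CR libraries gave 40.9 in CR 1, 93.3 in CR 2, 41.5 in CR 3, 42.0 in CR 4 and 152 in CR 5. CR 2 and CR 5 alone were above the AL range, and the log2 change of 0.73 ± 0.42 did not pass (adjusted p = 0.622). The difference between the tissues in the diet change was −1.05 ± 0.55 on the log2 scale (unadjusted p = 0.069, adjusted p = 0.682). An antisense gene, Gm14023, overlaps the exons of *Il1a* and reached 125 reads in the cornea and 151 in the conjunctiva. How the counting used strand is unknown, so reads of the pair cannot be kept apart with certainty.

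*Il1b* had few reads outside 1 library in each tissue. In the cornea it measured 16.5, 20.8, 138, 1.77 and 9.27 in AL 1 to AL 5. Under CR it measured 1.10 in CR 1, 0 in CR 2, 1.52 in CR 3, 14.3 in CR 4 and 14.9 in CR 7. AL 3 was the highest by far, and AL 4 lay among the low CR libraries. CR 1, CR 2 and CR 3 were below all AL libraries. They held 1, 0 and 2 reads against 2 in AL 4, so that order carries no weight. The means were 37.2 ± 56.6 (SD, n = 5) under AL and 6.36 ± 7.53 (n = 5) under CR. The log2 change was −2.04 ± 1.11 (95% confidence interval −4.36 to 0.29; limma, adjusted p = 0.342). Without AL 3 the mean of *Il1b* fell under the filter, so no test was made. In the conjunctiva AL 1, AL 3, AL 4 and AL 5 measured 27.3, 272, 10.8 and 19.1, and CR 1 to CR 5 measured 25.3, 31.4, 42.5, 13.3 and 52.1. AL 3 was again far above the rest, and the CR libraries lay within the AL range. Its log2 change was −0.25 ± 0.78 (adjusted p = 0.949), and without AL 3 it turned to 0.71 (adjusted p = 0.822). The antisense gene Il1bos overlaps *Il1b* and had at most 7 reads in a cornea library and 16 in a conjunctiva library.

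The neutrophil marker list (8 genes, among them *S100a8* and *S100a9*) was set beside *Il1b*. Its summed level was 465 in cornea AL 3, against 118 to 397 in the other AL libraries and 28.8 to 538 under CR. In conjunctiva AL 3 it was 659, against 61.1 to 312 in the other AL libraries and 180 to 668 under CR. *Ly6g*, the defining surface marker, had 0 reads in every library, and 5 of the 8 markers in the cornea and 3 in the conjunctiva averaged under 10. The part of neutrophils in the AL 3 values was not tested.

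*Il18* (gene ID 16173, chr9:50554700-50581841) had the most reads of the members in the cornea. It measured 1245, 1476, 1059, 1071 and 1305 in AL 1 to AL 5. The CR libraries gave 691 in CR 1, 903 in CR 2, 1054 in CR 3, 931 in CR 4 and 1102 in CR 7. CR 7 alone reached the AL range. The means were 1231 ± 174 (SD, n = 5) and 936 ± 160.2 (n = 5), and the log2 change of −0.40 ± 0.14 did not pass (limma, unadjusted p = 0.0083, adjusted p = 0.138). It ranked 744th of 12277 genes by p. The direction was the same under all 20 alternatives, with changes from −0.50 to −0.30, and 1 of them (array weights) gave an adjusted p of 0.0322 with a fold under 1.5. In the conjunctiva *Il18* stood at 269, 201, 209.8 and 268 in AL 1, 3, 4 and 5, and at 241, 193, 137, 251 and 337 in CR 1 to CR 5. The groups lay over each other there (log2 change −0.08 ± 0.24, adjusted p = 0.943).

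*Il33* (gene ID 77125, chr19:29925113-29960718) measured 112, 185, 234, 220.2 and 143 in cornea AL 1 to AL 5. Its CR libraries gave 133 in CR 1, 168 in CR 2, 150.0 in CR 3, 165 in CR 4 and 397 in CR 7. The first 4 lay inside the AL range and CR 7 far above it. It differed by 0.10 ± 0.28 on the log2 scale (adjusted p = 0.877), and −0.17 without CR 7 (adjusted p = 0.729). In the conjunctiva it measured 1211, 1399, 962 and 1153 in AL 1, 3, 4 and 5 and 1299, 906, 1116, 1210.0 and 1920.5 in CR 1 to CR 5. CR 5 was highest and CR 2 lowest, and the log2 change was 0.09 ± 0.19 (adjusted p = 0.914).

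The antagonist gene *Il1rn* (gene ID 16181, chr2:24336860-24351491) measured 316, 548, 703, 446 and 399.6 in cornea AL 1 to AL 5. Under CR it measured 413, 466, 455 and 429 in CR 1 to CR 4 and 734 in CR 7. These 4 values were close together and CR 7 exceeded every AL library. Its log2 change of 0.07 ± 0.20 did not pass (adjusted p = 0.887) and was −0.08 without CR 7 (adjusted p = 0.863). In the conjunctiva *Il1rn* measured 1365, 1508, 796 and 960.3 in AL 1, 3, 4 and 5 and 1369, 1571, 1000.2, 1338 and 1779.7 in CR 1 to CR 5. CR 2 and CR 5 exceeded the AL range, and the change of 0.31 ± 0.20 did not pass (adjusted p = 0.677). It was above 0 under all 19 alternatives, from 0.14 to 0.45.

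The balance of antagonist over agonist was followed as the ratio of *Il1rn* to *Il1a* plus *Il1b*, which does not depend on the scaling of a library. In the cornea the ratio ran from 1.91 to 2.90 under AL (median 2.37, n = 5) and from 2.18 to 6.39 under CR (median 3.41, n = 5). CR 1 was the highest and CR 7 the lowest of the CR libraries. The mean log2 ratio was 0.61 higher under CR, and between 0.40 and 0.79 higher when each library was left out in turn. In the conjunctiva the ratio ran from 4.96 to 18.9 under AL (median 16.7, n = 4) and from 8.73 to 24.2 under CR (median 12.6, n = 5). AL 3 was the lowest there. The mean log2 ratio was 0.20 higher under CR, and 0.26 lower without AL 3. These ratios were not tested.

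*Il1r1* (gene ID 16177, chr1:40222480-40316201), which encodes the signalling receptor, was the member with the smallest p in both tissues. The 250 bases before its RefSeq starts on GRCm38.p6 are shown because this gene had the largest difference relative to its error in both tissues. Neither window held any of the motifs searched on both strands. These were the TATA and AP-1 letters above, the E-box CACGTG (in 6.02% of all windows), the D-box TTATGTAA (in 0.819%) and the nuclear receptor half-site AGGTCA (in 14.0%). This says only that the letters are not in these windows. Both windows lie inside the gene span given above, and the bases directly before that span are not shown.
Il1r1 start 1, chr1:40224830-40225079: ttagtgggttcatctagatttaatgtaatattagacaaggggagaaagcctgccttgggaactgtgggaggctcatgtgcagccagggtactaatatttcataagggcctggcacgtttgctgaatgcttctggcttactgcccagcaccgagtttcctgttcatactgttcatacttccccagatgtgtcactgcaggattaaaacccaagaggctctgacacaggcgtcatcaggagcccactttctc
Il1r1 start 2, chr1:40266336-40266585: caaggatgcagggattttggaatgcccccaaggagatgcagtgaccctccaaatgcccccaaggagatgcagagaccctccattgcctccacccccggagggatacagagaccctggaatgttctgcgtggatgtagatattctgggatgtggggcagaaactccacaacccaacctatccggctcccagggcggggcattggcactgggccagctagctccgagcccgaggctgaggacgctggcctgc
The second window had a GC content of 60.4% and the first of 48.4%. The counts are per gene, so the starts cannot be followed one by one.

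In the cornea *Il1r1* measured 184, 307, 263, 277 and 329.6 in AL 1 to AL 5. The CR libraries gave 146 in CR 1, 118 in CR 2, 89.4 in CR 3, 131 in CR 4 and 249.8 in CR 7. The first 4 CR libraries were below all AL libraries, and CR 7 alone lay inside the AL range. The means were 272 ± 55.8 (SD, n = 5) and 147 ± 61.3 (n = 5). The log2 change was −0.95 ± 0.24 (95% confidence interval −1.44 to −0.45; limma, unadjusted p = 0.00086, adjusted p = 0.0531), just past the threshold of 0.05 on the side of no call. It ranked 198th of 12277 genes by p. In the conjunctiva it measured 559.5 in AL 1, 644 in AL 3, 525 in AL 4 and 739 in AL 5. Under CR it measured 410.1 in CR 1, 391 in CR 2, 232 in CR 3, 300.2 in CR 4 and 531 in CR 5. Again 4 CR libraries were below all AL libraries, and CR 5 lay just inside their range. The means were 617 ± 95.4 (n = 4) and 373 ± 114 (n = 5), and the log2 change was −0.77 ± 0.21 (95% confidence interval −1.22 to −0.32; unadjusted p = 0.0022, adjusted p = 0.168). The tissues did not differ in this change by the test of the difference (−0.18 ± 0.32, adjusted p = 0.918).

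**Figure D2:**
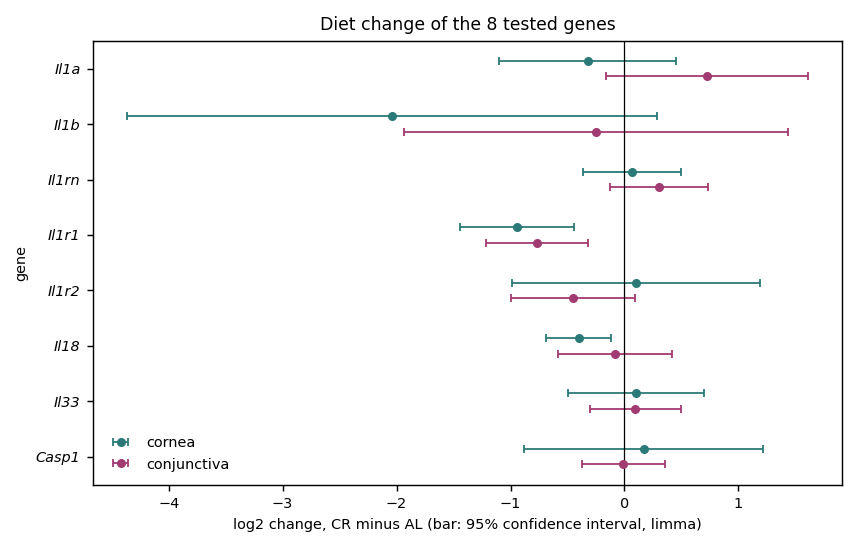
The log2 change of the 8 tested genes, CR minus AL, in the cornea (n = 5 and 5) and the conjunctiva (n = 4 and 5), with limma 95% confidence intervals. The intervals of *Il1r1* lie below 0 in both tissues and that of *Il18* in the cornea, before adjustment over all genes.

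The size of the *Il1r1* difference held under the alternatives, and its call did not. It was lower under CR in all 20 alternatives in the cornea (−1.16 to −0.79) and in all 19 in the conjunctiva (−1.01 to −0.61). In the cornea 8 alternatives passed, among them a pseudocount of 10 (adjusted p = 0.0472), RPM scaling (reads scaled to 1000000 per library, 0.0483), array weights (0.0040) and leaving out CR 7 (0.0052). In the conjunctiva 2 passed, a covariate for the zero-read share (−1.01, adjusted p = 0.0203) and leaving out CR 5 (−0.91, adjusted p = 0.0408). RPM scaling moved the median change of all conjunctival genes to −0.10, and *Il1r1* stood at −0.86 on that scale.

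**Figure D3:**
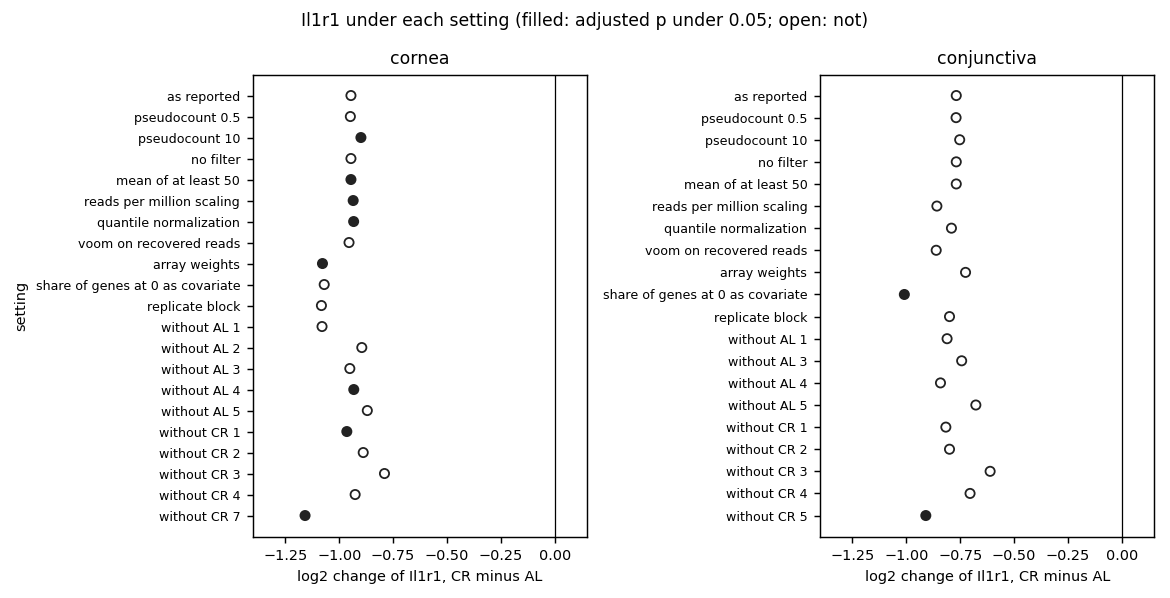
The log2 change of *Il1r1* (CR minus AL) under each processing setting, with filled points where the adjusted p was under 0.05. All points are below 0, and 8 of 20 alternatives in the cornea and 2 of 19 in the conjunctiva are filled.

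Summed markers of other cell types were set beside *Il1r1*. In the conjunctiva the 7 fibroblast markers summed to 39222 to 58440 under AL and to 25574 to 51249 under CR, with 7 of 7 lower and 2 called. The 13 macrophage markers summed to 5049 to 5932 and to 3439 to 4647, with 13 of 13 lower and 0 called, and the 6 leukocyte markers to 1533 to 1868 and to 952 to 1437, with 5 of 6 lower and 0 called. In the cornea the leukocyte sum was 344 to 540 under AL and 189 to 316 under CR, with 3 of the 5 tested lower and 0 called, and the macrophage sum 1476 to 1884 and 1216 to 1985, with 7 of the 8 tested lower and 1 called. The corneal fibroblast sum was 906 to 1861 under AL and 406 to 2026 under CR, far under the conjunctival one. Among the conjunctiva CR libraries, CR 5 was highest for *Il1r1* (531) and lowest in the fibroblast (25574) and macrophage (3439) sums. CR 3 was lowest for *Il1r1* (232) and highest in the macrophage sum (4647). The corneal epithelium marker sum had CR 5 highest (121262) and CR 3 lowest (79519) of these libraries. Of the conjunctiva AL libraries, AL 5 was highest for *Il1r1* (739) and in the fibroblast (58440) and macrophage (5932) sums. The part of these cells in the *Il1r1* difference was not tested.

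*Il1r2* (gene ID 16178, chr1:40084692-40125230), the decoy receptor, varied widely in the cornea. It measured 73.7, 101, 123, 27.4 and 59.7 in AL 1 to AL 5 and 116, 28.3, 45.5, 73.6 and 194 in CR 1, 2, 3, 4 and 7. The groups lay over each other (log2 change 0.10 ± 0.51, adjusted p = 0.941). In the conjunctiva it measured 189.7, 205, 120.5 and 137 in AL 1, 3, 4 and 5 and 137, 149, 115, 74.8 and 119.7 in CR 1 to CR 5. Of the CR libraries, 3 were below all AL libraries, and the change of −0.45 ± 0.26 did not pass (adjusted p = 0.616). It was below 0 under all 19 alternatives. The ratio of decoy to signalling receptor reads had a median of 0.33 under AL and 0.56 under CR in the cornea, and 0.27 and 0.33 in the conjunctiva, with ranges that overlapped in both tissues.

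Of the inflammasome members, *Casp1* (gene ID 12362, chr9:5298517-5307281) measured 16.5, 33.9, 70.9, 78.7 and 56.6 in cornea AL 1 to AL 5 and 71.2, 46.2, 35.6, 20.4 and 136 in CR 1, 2, 3, 4 and 7. AL 1 was the lowest library and CR 7 the highest, and the rest of the diets lay over each other (log2 change 0.17 ± 0.50, adjusted p = 0.885). In the conjunctiva *Casp1* was close to level between the libraries. It measured 323, 259, 255 and 276 in AL 1, 3, 4 and 5 and 279, 263, 250.1, 248 and 347 in CR 1 to CR 5. The log2 change was −0.01 ± 0.17, with a 95% confidence interval of −0.38 to 0.35 (adjusted p = 0.988).

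*Nlrp3* (gene ID 216799, chr11:59541569-59566955) was hardly read. In the cornea AL 3 had 14 reads (15.3 normalized counts), and the other 4 AL and all 5 CR libraries had 0. In the conjunctiva the reads were 1, 9, 2 and 2 in AL 1, 3, 4 and 5 and 5, 2, 7, 8 and 2 in CR 1 to CR 5. AL 3 was again the highest. An exact two-sided permutation test of the mean log2 values gave p = 0.429 in the conjunctiva, unadjusted, where the smallest p possible is 0.0079. In the cornea, with reads in 1 library alone, each relabelling gives a difference of the same size, so such a test has no meaning there. At these read numbers a difference between the diets was not detected in the conjunctiva and could not be tested in the cornea.

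Other genes of the pathway were taken from 4 lists of 51 genes, all in the tables. The lists were chosen with earlier results of these data known, so their counts are a description. In the cornea 40 were tested, of which 1 was called lower (beside 0.472% of all genes) and 0 higher, and 7 had an unadjusted p under 0.05, beside 18.1% of all genes. In the conjunctiva 44 were tested, 0 were called and 3 had an unadjusted p under 0.05, beside 9.40% of all genes. Each count of calls is read against the 1.22% and 0.359% of all genes. The gene called was *P2rx7* (gene ID 18439, chr5:122643927-122692336), the ATP-gated channel that triggers the NLRP3 inflammasome. In the cornea it measured 212, 218, 319, 179 and 219 in AL 1 to AL 5 and 179, 70.7, 71.97, 102 and 103 in CR 1, 2, 3, 4 and 7. In normalized counts the CR libraries were below all AL libraries, with CR 1 (178.5) just under AL 4 (178.6). Of all tested genes in the cornea, 3.97% had diets that did not overlap. In RPM CR 1 (15.7) was above AL 4 (15.4), so the diets overlapped on that scale. The log2 change was −1.18 ± 0.24 (limma, adjusted p = 0.0195). The call was kept under 12 of 20 alternatives. It was lost with a covariate for the zero-read share (−0.77, adjusted p = 0.193), with the title number as a replicate block (−1.20, adjusted p = 0.108; AL 5 and CR 7 have no partner there) and without AL 1, AL 2, AL 3, AL 5, CR 2 or CR 3 (adjusted p from 0.0544 to 0.0810). In the conjunctiva *P2rx7* measured 276 ± 87.7 (SD, n = 4) and 238 ± 32.7 (n = 5), a log2 change of −0.17 ± 0.21 (adjusted p = 0.847). The difference between the tissues was −1.002 ± 0.32 (unadjusted p = 0.0038, adjusted p = 0.400).

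None of the other listed genes passed. Among the IL-36 ligands, *Il1f9* (IL-36 gamma) measured 247 ± 109 (SD, n = 4) under AL and 591 ± 453 (n = 5) under CR in the conjunctiva (log2 change 1.10 ± 0.51, adjusted p = 0.540), and *Il1f6* (IL-36 alpha) 4.96 ± 4.95 and 20.1 ± 11.6 (2.12 ± 0.93, adjusted p = 0.480). In the cornea these genes stood at −0.27 ± 0.56 and −0.55 ± 0.93. Of the receptors and decoys, 6 of the 7 tested in the conjunctiva had log2 changes below 0 (median −0.48), beside a median of −0.02 over all genes. The leukocyte and macrophage markers named above had medians of −0.55 and −0.46 there, and their part was not tested. In the cornea 3 of the 5 tested receptors and decoys were below 0 (median −0.07). *Sigirr*, an inhibitory receptor of the family, measured 76.7 ± 9.92 (n = 4) and 45.7 ± 9.25 (n = 5) in the conjunctiva (−0.75 ± 0.31, limma, adjusted p = 0.438). Its diets did not overlap there, beside 3.86% of all tested genes. *Il1rap*, the shared co-receptor, measured 158 ± 43.2 and 112 ± 44.3 in that tissue (−0.54 ± 0.29, adjusted p = 0.588). In the cornea *Sigirr* and *Il18bp*, the IL-18 binding protein, stood at −0.55 ± 0.90 and 0.37 ± 0.92.

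Of the 20 genes that carry the receptor signal, 5 had an unadjusted p under 0.05 in the cornea and 0 in the conjunctiva, beside 18.1% and 9.40% of all genes. *Nfkb1*, an NF-kappa-B subunit, measured 250.4 ± 37.7 (SD, n = 5) under AL and 407 ± 114 (n = 5) under CR in the cornea (log2 change 0.66 ± 0.19, adjusted p = 0.0847). *Ikbkb*, a kinase upstream of it, measured 461 ± 52.7 and 330.4 ± 52.3 (−0.49 ± 0.14, adjusted p = 0.0989). In the conjunctiva the smallest p values were those of *Myd88*, the adaptor of the receptors (−0.31 ± 0.16, adjusted p = 0.573), and *Tab3*, a partner of the kinase TAK1 (0.39 ± 0.24, adjusted p = 0.645). Of the inflammasome list, *Txnip* (−0.39 ± 0.14, adjusted p = 0.357) and *Casp4*, which encodes caspase-11 (−0.44 ± 0.30, adjusted p = 0.687), led there.

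Several members stood at different levels in the cornea and the conjunctiva. The cornea was scraped epithelium and the conjunctiva excised whole, so tissue cannot be told apart from sampling and cell content. The fibroblast marker sum had an AL median of 1203 in the cornea and 55287 in the conjunctiva, and the macrophage sum 1527 and 5643. The tables were scaled separately by the authors, so levels are set side by side in RPM, as a description. Over all libraries of a tissue, 4 of the 9 members did not overlap between the tissues, beside 17.9% of all genes tested in both. *Nlrp3* is among the 9 but was tested in neither tissue. *Il18* held 60.6 to 126 RPM in cornea libraries and 11.9 to 24.8 RPM in conjunctiva libraries, 5.29 times as high by the AL means. *Il1a* was 4.56 times as high in the cornea by the AL means (14.7 ± 5.13 against 3.23 ± 0.50 RPM) and 2.26 times under CR, where the tissues overlapped. *Il33* ran the other way, with 9.53 to 33.1 RPM against 72.6 to 142 RPM (6.46 times by the AL means). *Casp1* had 1.40 to 11.3 against 18.6 to 27.9 RPM (5.30 times), and *Il1rn* 26.8 to 62.2 against 67.9 to 131 RPM (2.34 times). *Il1r1* was 2.22 times as high in the conjunctiva under AL and 2.32 times under CR, and the tissues overlapped under CR, where the lowest conjunctiva library held 20.1 RPM and the highest cornea library 20.9 RPM. *Il1b*, *Il1r2* and *Nlrp3* overlapped between the tissues.

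**Figure D4:**
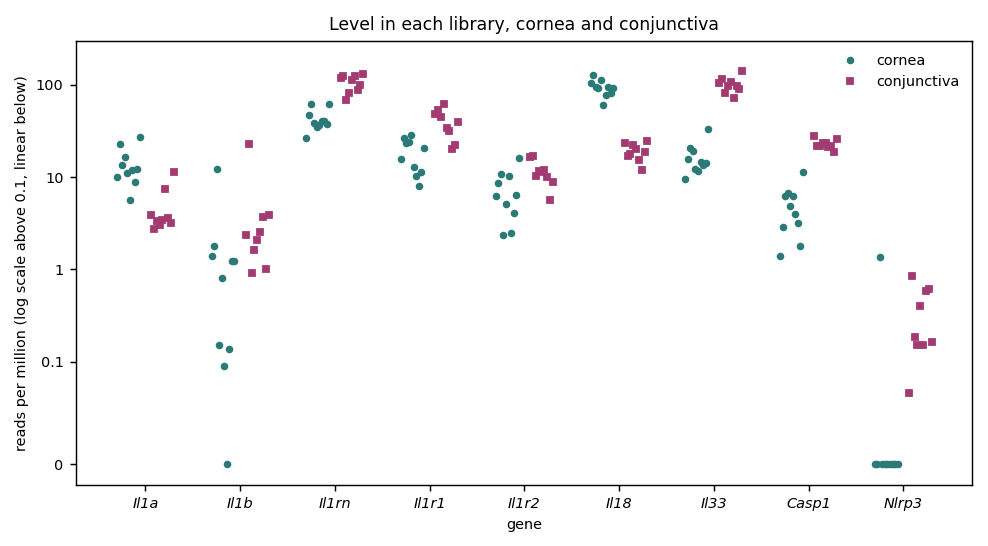
RPM (reads scaled to 1000000 counted reads) of the 9 genes in every cornea (circles) and conjunctiva (squares) library, both diets, on a scale that is logarithmic above 0.1. *Il18* is higher in every cornea library, and *Il33*, *Casp1* and *Il1rn* are higher in every conjunctiva library.

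Per kilobase of exon, the AL means of RPM put *Il18* first in the cornea (103), ahead of *Il1rn* (7.54), *Il1a* (7.47), *Il33* (5.36), *Il1r1* (3.69), *Il1r2* (3.49), *Casp1* (2.97) and *Il1b* (1.71). In the conjunctiva *Il33* (34.6) was ahead of *Il18* (19.5), *Il1rn* (17.7), *Casp1* (15.7), *Il1r1* (8.19) and *Il1r2* (7.23). *Nlrp3* was last in both tissues, at 0.067 and 0.077. The labels and the methods name different library kits, and with reads from the 3' end alone the division by length would not apply. Neighbours in the order such as *Il1rn* and *Il1a* in the cornea were closer than the spread between libraries.

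The same libraries were high for most members. Among the cornea CR libraries CR 7 was the highest for 8 of 8 tested members, while it was the highest for 25.7% of all tested genes. Among the conjunctiva CR libraries CR 5 was the highest for 7 of 8 (all but *Il1r2*), and for 27.8% of all tested genes. AL 3 was the highest AL library for the same 4 tested members in both tissues (*Il1b*, *Il1rn*, *Il1r2* and *Il33*) and also for *Nlrp3*, beside 17.9% (cornea) and 28.5% (conjunctiva) of all genes. The methods state that several tissues were taken from each mouse, but no label says that cornea AL 3 and conjunctiva AL 3 came from the same animal. Genes that vary together make such counts no sign of separate events.

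**Figure D5:**
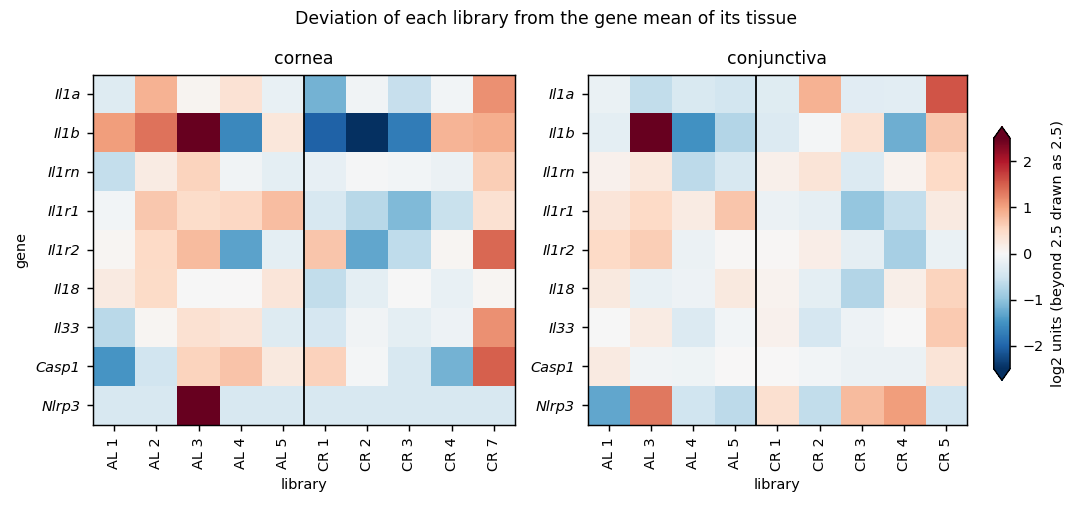
Deviation of each library from the mean log2 value of the gene in its tissue, for the 9 genes in rows and the libraries in columns. Cornea CR 7 and conjunctiva CR 5 are above the mean for most genes, and AL 3 for *Il1b* and *Nlrp3* in both tissues.

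The genes whose pattern was most like each member were named from log2 values centred within each tissue and diet over all 19 libraries, among 11928 genes tested in both tissues. *Cxcl2*, a neutrophil-attracting chemokine, was nearest to *Il1b* (Pearson r = 0.91, and 0.85 without the AL 3 libraries), with 784 normalized counts in cornea AL 3 and 14.1 to 101 in the other AL libraries, and 205 in conjunctiva AL 3 and 2.15 to 42.7 in the others. *Ywhah* (0.84) and *Cr1l* (0.83) followed. For *Il1r1* the nearest were *Gda* (0.90), *Apobec1* (0.87) and *Rfx7* (0.85), and for *Il1a* *Cd274* (0.93), *Osbpl3* (0.92) and *Itgam* (0.90). *Il1rn* was nearest to *Krt19* (0.85), *5730408K05Rik* (0.82) and *Gtf3c3* (0.82). *Il18* was nearest to *Sacm1l* (0.88), *Spice1* (0.86) and *Pxk* (0.85), and *Il33* to *Ptma* (0.88), *Atf6* (0.87) and *Pqlc1* (0.87). *Il1r2* was nearest to *Fgf12* (0.91), *Steap4* (0.88) and *Sectm1b* (0.86), and *Casp1* to *Pfkp* (0.87), *Flrt2* (0.85) and *Irf8* (0.84). For *Il1r2*, *Casp1* and *Il33* each r was lower in the conjunctiva than in the cornea. In the conjunctiva alone r was 0.79, 0.25 and 0.43 for the 3 genes nearest to *Il1r2*. For those nearest to *Casp1* it was 0.32, 0.49 and 0.57. *Ywhah* with *Il1b* had 0.93 in the cornea and 0.59 in the conjunctiva. Among the members themselves the closest pairs were *Il1rn* with *Il33* (0.76) and *Il1b* with *Il1r2* (0.74). The points share libraries and depth, and these values are a description.

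No member passed the test of a difference between the tissues in the response to the diet (0 of 8 called, beside 0.0168% of 11928 genes). At an unadjusted p under 0.05 there were 0 members, beside 7.48% of all genes. This test takes the cornea and conjunctiva libraries as independent. The methods state that several tissues were taken from each mouse, and animals shared between the tissues are not accounted for.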

How the data were processed

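Bulk RNA was measured in 19 libraries. Per the study's methods the authors trimmed single reads with cutadapt, aligned them to mm10 with STAR, counted with HTSeq and scaled by DESeq2 on the ROSALIND platform. The processing notes of the submitters name GRCm39 instead, and the library kits named by the labels and the methods differ, so build, kit and use of strand are not settled; tool versions are not given in the sources used here. Each deposited table holds log2(normalized count + 1) for 24557 features of 1 tissue, scaled by the authors within that tissue. Of these, 10 rows with a repeated symbol were left out. Whole reads were recovered from the log2 values (100% within 0.01 of a whole number). Counted reads ran from 10353873 to 14680980 per library.

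Diets were compared within each tissue with limma 3.58.1 (statmod 1.5.0, R 4.3.3; intensity trend, robust moderation) at a pseudocount of 1, over genes averaging 10 or more normalized counts. On this scale low genes show smaller fold changes than their counts would give. The change between tissues was tested from both fits with Satterthwaite degrees of freedom. *Nlrp3*, under the filter, got an exact permutation test in the conjunctiva. Alternatives were a pseudocount of 0.5 or 10, the filter removed or set at 50, RPM scaling, quantile normalization, voom on the recovered reads, array weights, a covariate for the zero-read share of each library, a replicate block, other thresholds and leaving out each library. The procedure was tested on simulated data. The members and lists were chosen with earlier results of these data known. The genes named were the members, every listed gene with an adjusted p under 0.05 or otherwise the 2 with the smallest p in each list and tissue, the 3 genes most like each tested member, and defining markers. Coordinates and promoter sequences are from RefSeq on GRCm38.p6 (the build mm10), exon lengths and overlaps from GENCODE vM21. Marker sums for T cells were at most 14.2 normalized counts in cornea and 78.1 in conjunctiva libraries, and those for endothelium at most 55.9 and 1919. No pair of libraries within a group agreed within sampling noise.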

Additional observations from a re-analysis of the deposited data

Results flagged for a closer look

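Of 35 groups of a member, tissue and diet with values above 0, 6 held a library far from its neighbours by Dixon's test at the 95% level, where chance flags about 1 in 20 groups. AL 3 accounted for 4 of them. *Il1b* was 138 normalized counts in cornea AL 3 (next 20.8) and 272 in conjunctiva AL 3 (next 27.3). *Nlrp3* was 15.3 in cornea AL 3 (next 0) and 10.1 in conjunctiva AL 3 (next 2.15). Any read at all in cornea AL 3 would have set *Nlrp3* apart there, since the other 4 libraries were at 0, so that group carries no weight. The other 2 were in cornea CR 7, where *Il1rn* was 734 (next 466) and *Il33* 397 (next 168). The members vary together within a library, so these are not 6 separate events.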

How the results depend on the processing

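The log2 changes of the members were refitted under 310 combinations of a member, tissue and alternative, of which 270 kept direction and side of the threshold, 10 newly passed (all lower under CR) and 30 turned direction, none of the latter past the threshold. Members called in the cornea went from 0 to 1 (*Il1r1*) at an adjusted p under 0.1, a pseudocount of 10, a filter at 50, RPM scaling, quantile normalization and array weights, and in the conjunctiva from 0 to 1 with a covariate for the zero-read share. Leaving out 1 library gave 0 to 1 in both tissues (1 without cornea AL 4, CR 1 or CR 7, or conjunctiva CR 5).

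All genes called numbered 150 in the cornea, and 283 at an adjusted p under 0.1, 705 with array weights, 62 with the covariate and 53 to 536 without 1 library. The conjunctival count of 50 became 102, 149 with array weights and 26 to 127 without 1 library. Same-numbered AL and CR libraries did not deviate together (r from -0.297 to 0.288 over 4 pairs in the cornea and from -0.062 to 0.053 over 4 in the conjunctiva), so numbers were not taken to pair the diets. Between the tissues, r of same-numbered libraries of a diet ran from -0.420 to 0.144 over 8 pairs, and from -0.376 to 0.404 over the 37 pairs of unlike number. The test of the difference between the tissues called 0 members under each alternative. Its replicate block and the ratios without 1 library were chosen after seeing the data. The replicate block gave 46 and 10 calls, 0 members, and *P2rx7* at -1.20 (adjusted p = 0.108).

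With the replicate block the corneal changes turned for *Il1rn* (-0.13), *Il1r2* (-0.29), *Il33* (-0.24), *Casp1* (-0.10) and *Sigirr* (0.12), and the conjunctival change of *Casp1* (0.0056). With the covariate they turned for *Il1rn* (-0.061), *Il33* (-0.30), *Casp1* (-0.37) and *Sigirr* (0.21) in the cornea and *Il33* (-0.041) in the conjunctiva. Array weights turned *Il1rn* (-0.0030) and *Il1r2* (-0.38) in the cornea and *Il33* (-0.0099) in the conjunctiva, and quantile normalization *Sigirr* (0.00062) in the cornea and *Casp1* (0.012) in the conjunctiva. The cause was not tested. Without 1 library the corneal changes ran from -0.078 to 0.22 for *Il1rn*, -0.24 to 0.44 for *Il1r2*, -0.17 to 0.22 for *Il33*, -0.18 to 0.49 for *Casp1*, and the conjunctival ones from -0.80 to 0.71 for *Il1b*, -0.23 to 0.092 for *Il18*, -0.060 to 0.21 for *Il33* and -0.094 to 0.063 for *Casp1*. In the cornea *Il1f6* ran from -1.12 to 0.30 and *Sigirr* from -0.98 to 0.42. *Il1b* could not be fitted in the cornea without AL 3 or with the filter at 50. Depth limits what can be said of *Nlrp3* and of *Il1b* in the cornea.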
